A study of Mus musculus with 22 samples.

Results

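The genes described here are 10 p53-linked and stress genes, listed by name: Cdkn1a, Ccng1, Mdm2, Bax, Bbc3, Trp53inp1, Phlda3, Eda2r, Gdf15 and Ddit4. All 10 were among the 24786 genes of the deposited mouse tables. In the liver, 9 of the 10 reached at least 1 RPKM (reads scaled to transcript length and to the mapped reads of the library) in at least 2 of the 6 libraries and were tested. Eda2r did not and is given by its values. The 6 liver libraries carried the label of a second batch and formed 3 groups of 2. CD8-depleted TG Aire-/- livers came from TG Aire-/- mice labelled as depleted of CD8+ T cells. TG Aire-/- livers came from mice of that genotype, and Aire+/+ livers from mice with intact Aire. The labels of these last groups name no depletion and do not say whether a control treatment was given. Beside them stood 1 library each of CD8+ T cells sorted from TG Aire-/-, TG Aire+/- and Aire-/- livers, from 500000 cells each. All mice were C57BL/6 and 2 to 4 weeks old.

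TG denotes dnTGFβRII, a dominant-negative type II TGF-β receptor that is expressed in T cells, and Aire is the regulator that has the thymus display tissue antigens to developing T cells. The study asked what this combination does to the liver and what removing CD8+ T cells changes. None of the 6 livers carried the transgene alone or the Aire deletion alone, so their shares in a difference between TG Aire-/- and Aire+/+ livers cannot be told apart. Neither the agent nor the length of the depletion is given in the labels, and it is not stated whether the 2 replicates of a group came from separate animals. Going by Xist and Y-linked transcripts, both CD8-depleted livers were male, while replicate 1 was male and replicate 2 female among the TG Aire-/- livers and also among the Aire+/+ livers. The p-values measure the spread between these samples, which may in part be technical.

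The tumour suppressor p53 is kept low by the ubiquitin ligase MDM2 and is stabilised by DNA damage and other stresses. It then binds response elements, each a pair of 10-base units, near genes that stop the cell cycle, repair DNA, limit growth signalling or start cell death, and near Mdm2 itself, which closes a feedback loop. In hepatocytes Cdkn1a is a well-known brake on division after injury. Several of these genes also answer to other inputs, among them the ATF4 arm of the integrated stress response for Ddit4 and Gdf15, and glucocorticoids and low oxygen for Ddit4.

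Promoter windows of 300 bases (250 before and 50 after an annotated start, RefSeq, GRCm38) were listed for 9 of the 10 genes, 13 windows in all. Trp53inp1 had no entry. The 10-base p53 unit was searched by its consensus on both strands. It occurred in 4 of the 13 windows, 1 each of Cdkn1a, Ccng1, Mdm2 and Bax, against 8.36% of all 32851 windows of this length. A full element of 20 bases with at most 2 mismatches occurred in 2 of the 13 windows, of Cdkn1a and Ccng1, against 0.798% of all windows. The 2 motifs overlap each other, and a match describes letters, not occupancy. The windows are shown for the genes with a full element because p53 control of the group is the reason it is described together. The Cdkn1a window shown lies at chr17:29090729-29091028 on the plus strand, and the Ccng1 window at chr11:40755237-40755536 on the minus strand. Cdkn1a has a further window, at another annotated start (chr17:29093519-29093818). It held no 10-base unit, and its best match to the full element had 5 mismatches. Capitals mark the 10-base units.
Cdkn1a promoter window: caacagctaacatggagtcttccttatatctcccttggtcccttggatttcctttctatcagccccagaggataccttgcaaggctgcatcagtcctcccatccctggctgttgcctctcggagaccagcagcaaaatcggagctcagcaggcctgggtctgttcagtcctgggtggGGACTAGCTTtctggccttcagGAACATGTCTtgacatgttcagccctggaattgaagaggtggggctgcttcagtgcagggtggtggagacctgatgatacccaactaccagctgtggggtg
Ccng1 promoter window: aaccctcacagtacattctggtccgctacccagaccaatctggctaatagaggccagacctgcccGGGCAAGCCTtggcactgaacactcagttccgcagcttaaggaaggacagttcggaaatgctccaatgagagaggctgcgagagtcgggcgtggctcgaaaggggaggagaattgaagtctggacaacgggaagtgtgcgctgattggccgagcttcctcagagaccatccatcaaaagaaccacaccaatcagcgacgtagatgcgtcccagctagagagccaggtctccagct

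The 2 full elements are compared next, with the mismatched base in lower case. That of Cdkn1a began 51 bases before the annotated start of the window shown (chr17:29090928-29090947). That of Ccng1 began 195 bases before its start (chr11:40755462-40755481, minus strand). Each had 1 mismatch. The single units of Mdm2 (186 bases before the start, chr10:117710935-117710944, minus strand) and Bax (201 bases before it, chr7:45467090-45467099, minus strand) follow with 5 flanking bases on each side in lower case.
Cdkn1a element: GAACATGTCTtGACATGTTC
Ccng1 element: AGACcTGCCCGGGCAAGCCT
Mdm2 unit: gatagGAACTTGCCTagcga
Bax unit: atcccAGGCAAGCTTtgaac

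TG Aire-/- livers had more RNA of these genes than Aire+/+ livers. Of the 9 tested genes 7 rose and none fell at an adjusted p under 0.05 (limma on log2(RPKM + 1), Benjamini-Hochberg over 12231 genes). The background was high: 31.8% of all genes tested rose in this comparison and 5.5% fell. All 9 were higher in both TG Aire-/- libraries than in either Aire+/+ library, as were 63% of all genes tested. The median difference of the 9 was 1.64 on the log2 scale, against 0.53 over all genes. CD8-depleted TG Aire-/- livers had less than TG Aire-/- livers: 6 of the 9 fell and none rose, where 33.5% of all genes fell and 4.49% rose, and the median difference was -1.95, against -0.58 over all genes. All 9 were lower in both CD8-depleted libraries than in either TG Aire-/- library, as were 60.6% of all genes tested. Both comparisons share the TG Aire-/- libraries, so they are not independent. In bulk tissue fewer cells of a type and less RNA per cell cannot be told apart.

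**Figure D1:**
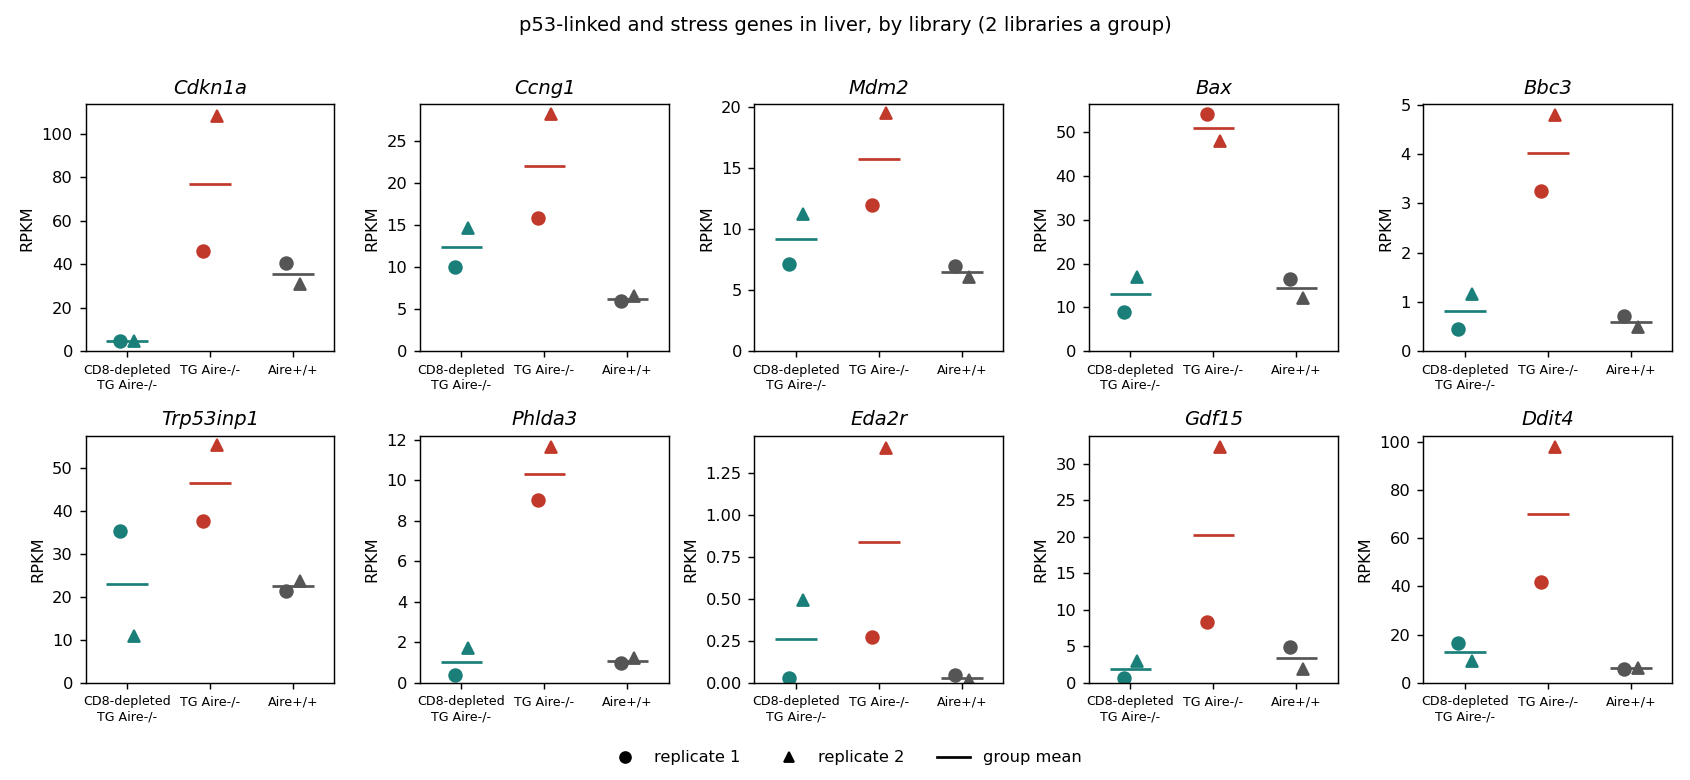
RPKM of the 10 genes in each liver library, with CD8-depleted TG Aire-/- left, TG Aire-/- in the middle and Aire+/+ right. Circles are replicate 1, triangles replicate 2, and bars group means. In all 10 panels both CD8-depleted libraries lie below the TG Aire-/- mean, and only for Cdkn1a do both also lie below both Aire+/+ libraries.

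Cdkn1a (chr17:29090979-29100722) encodes p21, an inhibitor of cyclin-dependent kinases. It was at 4.50 and 4.69 RPKM in the CD8-depleted livers, at 45.9 and 108 RPKM in the TG Aire-/- livers and at 40.7 and 30.8 RPKM in the Aire+/+ livers. It was the only one of the 9 for which both CD8-depleted libraries lay below both Aire+/+ libraries. The difference between CD8-depleted and TG Aire-/- livers was -3.68 (SE 0.41, limma adjusted p = 0.0021), a 12.8-fold lower level on the log2(RPKM + 1) scale. Against Aire+/+ livers the CD8-depleted livers differed by -2.70 (SE 0.41, limma adjusted p = 0.0451). That last call rests on little: it was lost with the replicate number as a block (adjusted p = 0.0569), with sex as a covariate, with male libraries only, without a filter, and when any 1 library but TG Aire-/- replicate 2 was left out.

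In the comparison of TG Aire-/- with Aire+/+ livers Cdkn1a did not pass the test (difference 0.98, SE 0.41, limma adjusted p = 0.0957). The male TG Aire-/- liver had 1.13 times the level of the male Aire+/+ liver, and the female one 3.52 times the level of the female Aire+/+ liver. Sex and replicate are the same split here, so which of them goes with the higher value cannot be told apart. Without TG Aire-/- replicate 1 the difference was 1.59 (limma adjusted p = 0.0167).

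Ccng1 (chr11:40748552-40755309), cyclin G1, recruits the phosphatase PP2A to MDM2. It had 10.0 and 14.6 RPKM in the CD8-depleted livers, 15.9 and 28.2 RPKM in the TG Aire-/- livers and 5.95 and 6.54 RPKM in the Aire+/+ livers. The 3 groups did not overlap, and the CD8-depleted livers lay between the other two. Ccng1 rose in TG Aire-/- livers by 1.62 (SE 0.34, limma adjusted p = 0.0106). The difference after depletion was -0.76 (95% interval -1.55 to 0.03, limma adjusted p = 0.112).

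Mdm2 (chr10:117688875-117710758) encodes the ligase that marks p53 for degradation. It had 7.16 and 11.2 RPKM in the CD8-depleted livers, 12.0 and 19.6 RPKM in the TG Aire-/- livers and 6.95 and 6.12 RPKM in the Aire+/+ livers. Its order was that of Ccng1, with smaller gaps. It rose in TG Aire-/- livers by 1.12 (SE 0.33, limma adjusted p = 0.0339), a call that was lost when libraries were scaled by the median ratio over genes (adjusted p = 0.225). The difference after depletion was -0.71 (95% interval -1.48 to 0.06, limma adjusted p = 0.123), and under that scaling it was 0.01.

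Bax (chr7:45461695-45466903) belongs to the genes of cell death, and its protein permeabilises the outer mitochondrial membrane. It had 9.02 and 16.9 RPKM in the CD8-depleted livers, 54.1 and 47.9 RPKM in the TG Aire-/- livers and 16.4 and 12.2 RPKM in the Aire+/+ livers. The CD8-depleted and Aire+/+ livers overlapped, and the TG Aire-/- livers stood above both. Bax was the one gene of the 10 whose TG Aire-/- replicate 1 exceeded replicate 2. It rose by 1.77 in TG Aire-/- livers (SE 0.34, limma adjusted p = 0.00785) and fell by 1.95 after depletion (SE 0.34, limma adjusted p = 0.00637).

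Bbc3 (chr7:16308398-16318334) encodes PUMA, a BH3-only protein that releases BAX and BAK from their inhibitors. It had 0.454 and 1.16 RPKM in the CD8-depleted livers, 3.25 and 4.79 RPKM in the TG Aire-/- livers and 0.711 and 0.489 RPKM in the Aire+/+ livers. The pattern was that of Bax at a lower level. Bbc3 rose by 1.64 in TG Aire-/- livers (SE 0.28, limma adjusted p = 0.00585) and fell by 1.48 after depletion (SE 0.28, limma adjusted p = 0.00835).

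Phlda3 (chr1:135766085-135769134) encodes a pleckstrin-homology protein that restrains AKT. It had 0.400 and 1.69 RPKM in the CD8-depleted livers, 9.03 and 11.6 RPKM in the TG Aire-/- livers and 0.978 and 1.21 RPKM in the Aire+/+ livers. Its 2 TG Aire-/- libraries lay close together and far above the other 4. Phlda3 rose by 2.43 in TG Aire-/- livers (SE 0.35, limma adjusted p = 0.00325), and by 2.34 in the male pair alone and 2.52 in the female pair alone, values with no test. After depletion it fell by 2.53 (SE 0.35, limma adjusted p = 0.0029).

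Trp53inp1 (chr4:11156441-11174379), a p53-induced nuclear protein linked to autophagy and death, did not pass the test in any of the 3 comparisons as fitted here. It had 35.3 and 10.8 RPKM in the CD8-depleted livers, 37.6 and 55.1 RPKM in the TG Aire-/- livers and 21.4 and 23.7 RPKM in the Aire+/+ livers. The 2 CD8-depleted libraries differed more from each other than the TG Aire-/- group mean did from that of Aire+/+. Its difference after depletion was -1.17 (95% interval -2.35 to 0.01, limma adjusted p = 0.102), and without CD8-depleted replicate 1 it passed the test (adjusted p = 0.0193). In TG Aire-/- against Aire+/+ livers its difference was 0.99 (limma adjusted p = 0.154), and it passed under 3 of 15 alternatives, those without 1 or both CD8-depleted libraries (adjusted p = 0.0306 to 0.0312).

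Eda2r (chrX:97333837-97377234), a TNF-receptor family member that binds ectodysplasin A2, was low. It had 0.0310 and 0.495 RPKM in the CD8-depleted livers, 0.273 and 1.40 RPKM in the TG Aire-/- livers and 0.0452 and 0.0169 RPKM in the Aire+/+ livers. A level of 3 reads corresponds to about 0.03 RPKM here, so CD8-depleted replicate 1 and both Aire+/+ libraries were near what a few reads give. The replicate 2 libraries held the highest value of both TG groups. Of its ligand side, Eda was below 1 RPKM in 5 of the 6 livers.

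Gdf15 (chr8:70629393-70632470) encodes a secreted stress cytokine that acts on the hindbrain receptor GFRAL. It had 0.681 and 2.97 RPKM in the CD8-depleted livers, 8.30 and 32.2 RPKM in the TG Aire-/- livers and 4.91 and 1.94 RPKM in the Aire+/+ livers. Replicates differed several-fold within each group, and the CD8-depleted and Aire+/+ livers overlapped. Gdf15 rose by 2.08 in TG Aire-/- livers (SE 0.67, limma adjusted p = 0.045), a call lost under 8 of 15 alternatives. After depletion it fell by 2.77 (SE 0.67, limma adjusted p = 0.0176), lost under 5 of 15. Gfral was listed at 0 in all 6 livers.

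Ddit4 (chr10:59949675-59951770) encodes REDD1, which lowers mTORC1 activity under stress. It had 16.5 and 8.87 RPKM in the CD8-depleted livers, 41.8 and 97.8 RPKM in the TG Aire-/- livers and 5.78 and 6.06 RPKM in the Aire+/+ livers. The 3 groups did not overlap. Ddit4 rose by 3.23 in TG Aire-/- livers (SE 0.45, limma adjusted p = 0.00301), the largest difference of the 9 genes, and fell by 2.31 after depletion (SE 0.45, limma adjusted p = 0.00864). With 3.23 it stood 9.40-fold higher on the log2(RPKM + 1) scale.

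**Figure D2:**
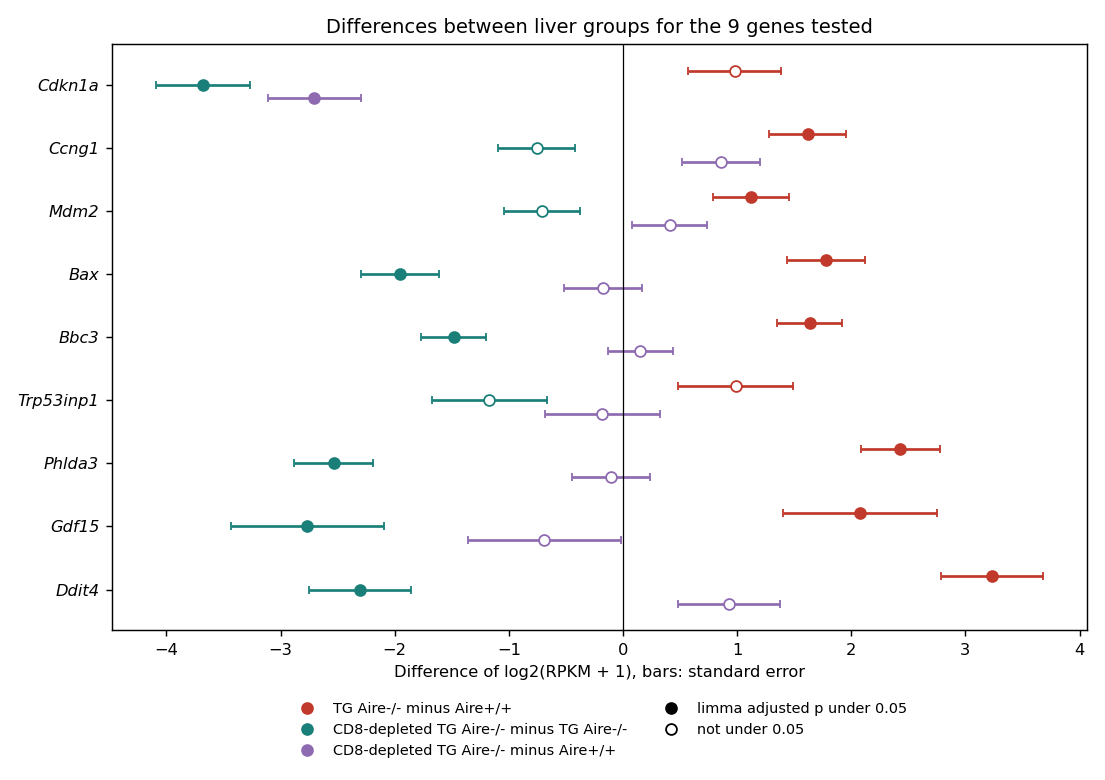
Differences of log2(RPKM + 1) between liver groups for the 9 genes tested, with standard errors. Filled points passed a limma adjusted p of 0.05: 7 of 9 for TG Aire-/- minus Aire+/+, 6 of 9 for CD8-depleted minus TG Aire-/-, and Cdkn1a alone for CD8-depleted minus Aire+/+.

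Against Aire+/+ livers the CD8-depleted TG Aire-/- livers differed in 1 of the 9 genes, Cdkn1a, where 0.327% of all genes tested fell and 0.221% rose, 67 genes in all. The unadjusted p was under 0.05 for 1327 genes. Bbc3 differed by 0.15 (95% interval -0.51 to 0.82), Bax by -0.18 (95% interval -0.98 to 0.62) and Phlda3 by -0.11 (95% interval -0.91 to 0.70). The CD8-depleted libraries overlapped the Aire+/+ libraries for these 3 genes, but the intervals do not show that the levels were alike. Ccng1, Mdm2 and Ddit4 were higher in both CD8-depleted libraries than in either Aire+/+ library, as were 20.2% of all genes, and none of the 3 passed the test. For Ddit4 the difference was 0.93 (95% interval -0.12 to 1.97, limma adjusted p = 0.511), and for Ccng1 it was 0.86 (95% interval 0.07 to 1.65, limma adjusted p = 0.413). Gdf15 differed by -0.69 (95% interval -2.26 to 0.88).

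TG Aire-/- replicate 2, the female library, was above replicate 1 for 9 of the 10 genes and carries part of these differences. Without it fewer of the 9 genes were called. Their median was then 1.22 against Aire+/+ livers (0.38 over all genes) and -1.70 after depletion (-0.44 over all genes). Without Aire+/+ replicate 1 the estimates ran from 0.92 (Trp53inp1) to 3.20 (Ddit4), where the median of all genes was 0.55. Without Aire+/+ replicate 2 they ran from 0.78 (Cdkn1a) to 3.26 (Ddit4), where it was 0.53. An alternative with male libraries only was added after the values were seen, and its spread comes from the CD8-depleted pair alone. In that fit the calls against the single male Aire+/+ liver were lost, and Cdkn1a differed by -3.07 after depletion. The estimates for the male pair were all above 0, at 0.71 for Mdm2, 0.65 for Gdf15, 1.28 for Ccng1, 1.31 for Bbc3, 1.66 for Bax and 2.66 for Ddit4.

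The wider p53 program was read from lists of known targets by role, which hold some of the 10 genes: Cdkn1a and Ccng1 in the arrest list, 5 of them in the death list and Mdm2 in the list of genes that control p53. Over all genes tested 31.8% rose in TG Aire-/- livers, and 33.5% fell and 4.49% rose after depletion. Among 12 tested arrest genes 10 rose and none fell in TG Aire-/- livers (median 1.56), and 8 fell and 1 rose after depletion. Without Cdkn1a and Ccng1 these were 9, 7 and 1 of 10. Plk2, a polo-like kinase induced by stress, had 0.792 and 1.97 RPKM in the CD8-depleted livers, 8.56 and 33.0 RPKM in the TG Aire-/- livers and 1.48 and 1.48 RPKM in the Aire+/+ livers. Gadd45a, a growth-arrest and repair adaptor, had 0.578 and 0.596 RPKM in the CD8-depleted livers, 7.76 and 18.1 RPKM in the TG Aire-/- livers and 1.15 and 0.643 RPKM in the Aire+/+ livers. Both rose in TG Aire-/- livers (2.86 for Plk2 and 2.78 for Gadd45a, limma adjusted p = 0.00822 and 0.00293). Plk3, named after its values were seen, was the 1 gene that rose after depletion (0.93, limma adjusted p = 0.0479).

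Of 14 tested death genes 8 rose and none fell in TG Aire-/- livers, and 8 fell after depletion, with medians of 1.20 and -1.33. Over all genes tested 31.8% rose and 33.5% fell in these comparisons. Not all death genes moved upward: 11 of the 14 were higher and 3 lower without overlap in TG Aire-/- against Aire+/+ livers. Of all genes tested 63% were higher without overlap there, and the share that was lower is not given here. Without Bax, Bbc3, Trp53inp1, Phlda3 and Eda2r, 5 of 10 rose in TG Aire-/- livers and 5 fell after depletion (medians 0.93 and -0.84). Pmaip1, which encodes the BH3-only protein NOXA, had 0.356 and 1.54 RPKM in the CD8-depleted livers, 2.53 and 8.12 RPKM in the TG Aire-/- livers and 0.350 and 0.353 RPKM in the Aire+/+ livers. It rose by 2.07 in TG Aire-/- livers (limma adjusted p = 0.0144) and fell by 1.61 after depletion (limma adjusted p = 0.0323). Among 13 other tested members of the Bcl2 family 10 rose in TG Aire-/- livers and 9 fell after depletion. The risers included the pro-survival Bcl2a1b (3.76, limma adjusted p = 0.00142) and Bcl2a1d (2.37, limma adjusted p = 0.00306), near-identical copies whose reads the counting could split in ways not known here.

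The repair and metabolism targets of p53 moved in both directions. Of 13 tested, 3 rose and 2 fell in TG Aire-/- livers, with a median of 0.56 near that of all genes. Over all genes tested 31.8% rose and 5.5% fell there. Abhd4 (1.08, limma adjusted p = 0.0321) and Polk, a translesion polymerase (0.99, limma adjusted p = 0.0205), rose. Dcxr, a carbonyl reductase, had 42.3 and 24.4 RPKM in the CD8-depleted livers, 15.4 and 11.2 RPKM in the TG Aire-/- livers and 53.9 and 54.8 RPKM in the Aire+/+ livers. Gls2, a liver glutaminase, had 122 and 62.3 RPKM in the CD8-depleted livers, 42.6 and 13.3 RPKM in the TG Aire-/- livers and 71.2 and 83.9 RPKM in the Aire+/+ livers. Both fell in TG Aire-/- livers (limma adjusted p = 0.00539 for Dcxr and 0.0498 for Gls2) and rose after depletion (1.23 and 1.82, limma adjusted p = 0.0251 and 0.0355). The split depended on the scaling and on 1 library. With libraries scaled by the median ratio none of 12 rose and 4 fell in TG Aire-/- livers. Under that scaling 1762 of all 11990 genes tested rose and 1546 fell. Without TG Aire-/- replicate 2 the calls in both comparisons were lost. The median in TG Aire-/- against Aire+/+ livers was then 0.44, against 0.38 over all genes. Of 10 hepatocyte markers 3 fell in TG Aire-/- livers and 2 rose after depletion, and their summed level was 38230 to 69424 RPKM in CD8-depleted, 24958 to 38023 RPKM in TG Aire-/- and 60412 to 61324 RPKM in Aire+/+ livers. Its part in the 2 genes was not tested.

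Trp53, the gene of p53 itself, had 5.97 and 11.0 RPKM in the CD8-depleted livers, 22.0 and 19.1 RPKM in the TG Aire-/- livers and 9.29 and 7.67 RPKM in the Aire+/+ livers. It rose by 1.19 in TG Aire-/- livers (limma adjusted p = 0.0256) and fell by 1.24 after depletion (limma adjusted p = 0.0221). Of 8 tested genes that control p53, 5 rose in TG Aire-/- livers, among them the kinase gene Hipk2 (1.44, limma adjusted p = 0.0418), and 3 fell after depletion. Without Mdm2 these were 4 and 3 of 7. Over all genes tested 31.8% rose and 33.5% fell in these comparisons. In DNA damage signalling 2 of 13 tested genes rose, Chek2 (1.09, limma adjusted p = 0.0261) and Mre11a (0.75, limma adjusted p = 0.0278), 12 of the 13 were higher without overlap, where 63% of all genes were, and the median was 0.54. After depletion 6 of the 13 fell, against 33.5% of all genes. When libraries were scaled by the median ratio, no gene of these 2 lists rose in TG Aire-/- livers, while 7 of 12 arrest genes and 6 of 13 death genes still did. Of the 13 death genes 1 fell in TG Aire-/- livers under that scaling. Of all 11990 genes tested 1762 rose and 1546 fell there. After depletion under that scaling none of the 8 control genes fell, and 1 of 13 DNA damage genes fell and 1 rose. Of all genes 1558 fell and 1283 rose there. Without TG Aire-/- replicate 2 the calls of both lists in TG Aire-/- livers were lost. The medians were then 0.66 for control and 0.38 for DNA damage genes, against 0.38 over all genes. After depletion they were -0.44 and -0.51, against -0.44 over all genes.

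Stress inputs to Ddit4 and Gdf15 were read from 3 further lists. That of the integrated stress response holds both genes, that of glucocorticoid targets holds Ddit4, and that of hypoxia targets holds none of the 10. Over all genes tested 31.8% rose in TG Aire-/- livers and 33.5% fell after depletion. In the integrated stress response 11 of 16 tested genes rose in TG Aire-/- livers (median 2.07) and 14 fell after depletion (median -2.23), Ddit4 and Gdf15 among them. Without these 2 genes, 9 of 14 rose and 12 fell. Atf3, a stress-induced repressor, had 0.843 and 7.71 RPKM in the CD8-depleted livers, 11.0 and 32.6 RPKM in the TG Aire-/- livers and 0.750 and 0.300 RPKM in the Aire+/+ livers. Psat1, of serine synthesis, rose by 3.25 in TG Aire-/- livers and fell by 3.54 after depletion (limma adjusted p = 0.00277 and 0.00219).

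Hypoxia targets rose in 9 of 12 cases in TG Aire-/- livers and fell in 8 of 12 after depletion. Over all genes tested 31.8% rose and 33.5% fell in these comparisons. Adm, the gene of adrenomedullin, had 0.651 and 0.947 RPKM in the CD8-depleted livers, 27.7 and 119 RPKM in the TG Aire-/- livers and 0.870 and 1.03 RPKM in the Aire+/+ livers. Ndrg1 had 1.68 and 1.64 RPKM in the CD8-depleted livers, 21.0 and 149.8 RPKM in the TG Aire-/- livers and 4.34 and 2.77 RPKM in the Aire+/+ livers. As for Ddit4, replicate 2 was the higher of the TG Aire-/- pair for both. Glucocorticoid targets showed no such order: 3 of 11 rose, Sgk1 (1.56, limma adjusted p = 0.0201) and Ddit4 among them, 1 fell, Tsc22d3 (-1.07, limma adjusted p = 0.0216), and the median was 0.19, or -0.46 when libraries were scaled by the median ratio.

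**Figure D3:**
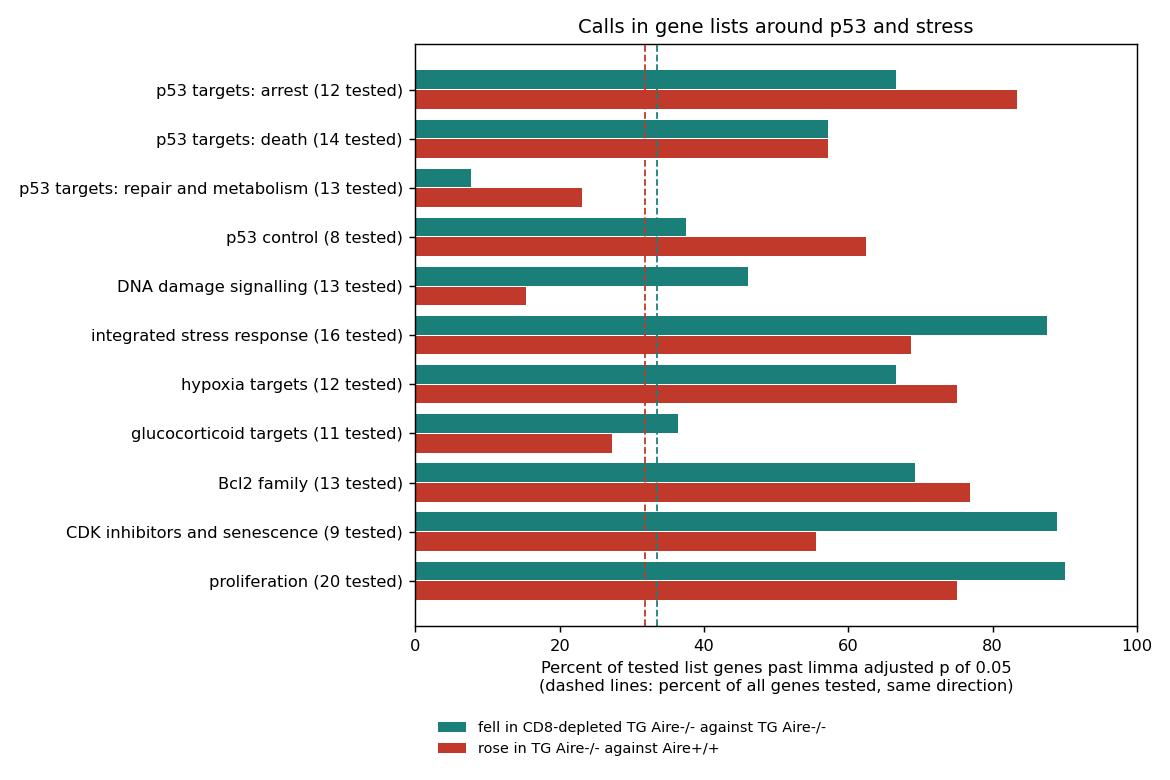
Share of the tested genes of each list that fell in CD8-depleted against TG Aire-/- livers (upper bar) and rose in TG Aire-/- against Aire+/+ livers (lower bar) at a limma adjusted p of 0.05. Dashed lines give the share of all genes tested, 33.5% and 31.8%, and the repair and metabolism bars lie below both.

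Genes of arrest and of division were high in the same livers. Of 20 tested proliferation genes 15 rose in TG Aire-/- livers and 18 fell after depletion. Over all genes tested 31.8% rose and 33.5% fell in these comparisons. Mki67, a marker of cycling cells, had 0.376 and 1.96 RPKM in the CD8-depleted livers, 14.0 and 8.60 RPKM in the TG Aire-/- livers and 0.924 and 1.78 RPKM in the Aire+/+ livers. Rrm2, a ribonucleotide reductase subunit, had 3.08 and 3.01 RPKM in the CD8-depleted livers, 28.7 and 24.9 RPKM in the TG Aire-/- livers and 3.95 and 6.88 RPKM in the Aire+/+ livers. Unlike Cdkn1a, both were higher in TG Aire-/- replicate 1 than in replicate 2. Among 9 tested CDK inhibitor and senescence genes, a list without Cdkn1a, 5 rose in TG Aire-/- livers and 8 fell after depletion. As with Cdkn1a, 1 of these 9 was called lower in CD8-depleted than in Aire+/+ livers. Plaur, the urokinase receptor gene, rose by 3.51 (limma adjusted p = 0.00277) and fell by 2.93 after depletion (limma adjusted p = 0.00454). With libraries scaled by the median ratio, 1762 of all 11990 genes tested rose in TG Aire-/- livers. Under that scaling 3 of 19 proliferation genes and 4 of 11 hypoxia targets rose. So did 7 of 16 genes of the integrated stress response and 5 of 13 of the Bcl2 family. Without TG Aire-/- replicate 2, which leaves 1 library in that group, fewer genes of each list given next were called. The median differences were then 1.99 for proliferation, 1.04 for arrest, 1.34 for death and 0.98 for the Bcl2 family. They were 1.23 for hypoxia targets and 1.29 for the integrated stress response, against 0.38 over all genes.

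Of the signalling partners of the 10 genes, 4 of 9 were tested. Rragd, a Rag GTPase gene of the mTORC1 pathway that Ddit4 restrains, rose by 1.81 in TG Aire-/- livers (limma adjusted p = 0.0256), and Ddit4l, the paralog of Ddit4, by 0.81 (limma adjusted p = 0.0362) and fell by 0.94 after depletion (limma adjusted p = 0.022). Tsc1 and Tsc2 did not pass the test. None of these calls held when libraries were scaled by the median ratio (0 of 4 genes) or without TG Aire-/- replicate 2 (0 of 3).

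Markers of other cell types moved with the 10 genes in the liver. In TG Aire-/- against Aire+/+ livers 10 of 10 tested pan-T markers rose, 13 of 14 macrophage, 9 of 9 neutrophil, 7 of 9 erythroid, 8 of 10 stellate and 8 of 8 endothelial markers, where 31.8% of all genes did. After depletion 9 pan-T, 9 macrophage, 4 neutrophil, 8 erythroid, 9 stellate and 8 endothelial markers fell, where 33.5% of all genes did. Of 6 cholangiocyte markers 2 rose and 2 fell in these comparisons, close to the share of all genes. With libraries scaled by the median ratio 7 of 8 pan-T, 11 macrophage and 9 neutrophil markers rose in TG Aire-/- livers. After depletion 4 pan-T, 6 macrophage and 1 neutrophil marker fell. Of all 11990 genes tested under that scaling 1762 rose and 1558 fell in these comparisons. Without TG Aire-/- replicate 2 fewer of these markers were called. The medians were then 2.62 for pan-T, 2.35 for macrophage and 2.96 for neutrophil markers, against 0.38 over all genes. After depletion the neutrophil calls were lost in that fit (median -1.39, against -0.44 over all genes). The erythroid sum was 354 and 761 RPKM in the CD8-depleted livers, 21118 and 12552 RPKM in the TG Aire-/- livers and 1763 and 1489 RPKM in the Aire+/+ livers. The macrophage sum was 275 and 847 RPKM in the CD8-depleted livers, 2039 and 1868 RPKM in the TG Aire-/- livers and 324 and 282 RPKM in the Aire+/+ livers. Endothelial markers summed to 26.2 and 27.0 RPKM in the CD8-depleted livers, 189.5 and 389 RPKM in the TG Aire-/- livers and 33.0 and 29.4 RPKM in the Aire+/+ livers. The endothelial sum was higher in TG Aire-/- replicate 2 and the erythroid sum in replicate 1. The sum of Cd8a and Cd8b1 was 0 and 0.221 RPKM in the CD8-depleted livers, 15.0 and 6.75 RPKM in the TG Aire-/- livers and 0.290 and 0.290 RPKM in the Aire+/+ livers. Of 6 B cell markers only 2 were tested, and neither passed in any comparison. Their median after depletion was -0.81, and -1.59 without TG Aire-/- replicate 2. The part of these cells in the 10 genes was not tested.

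Each liver library was hepatic by its markers. Alb, the albumin gene of hepatocytes, was at 18964 to 49396 RPKM in the 6 livers, and from 9761 to 12441 genes reached 1 RPKM per liver library. Aire was listed at 0 in both Aire+/+ livers, so its level cannot check the genotypes here. It stood at 0.301 RPKM in the library labelled TG Aire-/- replicate 2, whose genotype label is thus unchecked, and at or below 0.00471 RPKM in the other 8 libraries used.

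The sorted CD8+ T cells were looked at beside the livers, since CD8+ T cells are the population removed. Levels are set beside those of the liver with the reserve that the tables were normalized separately. With 1 library per genotype there was no test and no replicate check. All 3 libraries were rich in Cd8a (172 RPKM in TG Aire-/-, 259.7 RPKM in TG Aire+/- and 236 RPKM in Aire-/-) and poor in Alb (0.659 RPKM in TG Aire-/-, 0.838 RPKM in TG Aire+/- and 3.04 RPKM in Aire-/-). RNA of other cells was present, most in the Aire-/- library and also in that of TG Aire-/-. Erythroid markers summed to 279.5 RPKM in TG Aire-/-, 262 RPKM in TG Aire+/- and 18678 RPKM in Aire-/- cells. Macrophage markers summed to 54.5 RPKM in TG Aire-/-, 13.6 RPKM in TG Aire+/- and 389 RPKM in Aire-/- cells. Neutrophil markers summed to 656 RPKM in TG Aire-/-, 17.4 RPKM in TG Aire+/- and 1568 RPKM in Aire-/- cells. The part of this RNA in the differences below was not tested.

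In these cells Bax had 80.8 RPKM in TG Aire-/-, 47.3 RPKM in TG Aire+/- and 40.3 RPKM in Aire-/- CD8+ T cells. Bbc3 had 24.9 RPKM in TG Aire-/-, 9.85 RPKM in TG Aire+/- and 13.3 RPKM in Aire-/- cells, above its level in any liver. Ddit4 had 36.9 RPKM in TG Aire-/-, 15.8 RPKM in TG Aire+/- and 14.2 RPKM in Aire-/- cells. These 3 genes were highest in the TG Aire-/- cells, as were Ccng1, by little, and Phlda3, at a low level. Cdkn1a was lowest there, as was Mdm2. Cdkn1a had 4.54 RPKM in TG Aire-/-, 11.4 RPKM in TG Aire+/- and 6.80 RPKM in Aire-/- cells.

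By the size rule used for these libraries (a difference of at least 1 on the log2(RPKM + 1) scale among genes with at least 5 RPKM in 1 of the 2 libraries), Bbc3 and Ddit4 were higher in TG Aire-/- than in TG Aire+/- cells (1.25 and 1.17), where 7.49% of all genes were. Cdkn1a was lower (-1.16), where 8.25% were. Against Aire-/- cells Ddit4 alone was higher in TG Aire-/- cells (1.32), where 12.5% of genes were higher and 9.93% lower, with Bax at 0.98 and Bbc3 at 0.86. Between TG Aire+/- and Aire-/- cells none of the 10 genes reached a difference of 1, where 2.52% of genes were higher and 3% lower.

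Ccng1 varied little, at 32.1 RPKM in TG Aire-/-, 30.4 RPKM in TG Aire+/- and 28.8 RPKM in Aire-/- cells. Mdm2 had 26.5 RPKM in TG Aire-/-, 34.3 RPKM in TG Aire+/- and 37.8 RPKM in Aire-/- cells, and Trp53inp1 had 40.3 RPKM in TG Aire-/-, 34.8 RPKM in TG Aire+/- and 41.8 RPKM in Aire-/- cells. Their differences stayed under 1. Phlda3 had 2.08 RPKM in TG Aire-/-, 0.434 RPKM in TG Aire+/- and 0.953 RPKM in Aire-/- cells, under the minimum of 5 RPKM and below the TG Aire-/- livers. Gdf15 and Eda2r were at or under 0.0489 RPKM in all 3 libraries, and 3 reads correspond to 0.0881 RPKM or more for Gdf15. Gdf15 was thus not detectable beyond a few reads in these cells, where the TG Aire-/- livers had 8.30 and 32.2 RPKM.

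**Figure D4:**
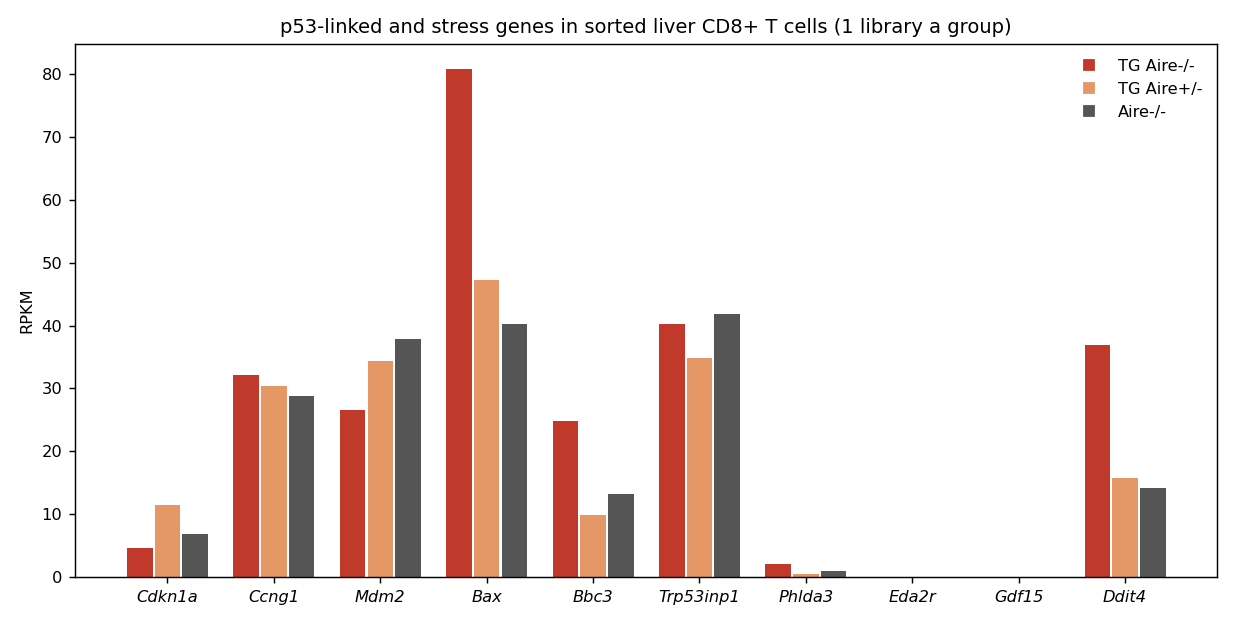
RPKM of the 10 genes in CD8+ T cells sorted from TG Aire-/- (left bar), TG Aire+/- (middle) and Aire-/- (right) livers, 1 library each, with no error bars because there are no replicates. Bax, Bbc3, Ddit4, Ccng1 and Phlda3 are highest in TG Aire-/- cells, Cdkn1a and Mdm2 are lowest there, and Gdf15 and Eda2r are near 0.

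Ddit4, the gene with the largest difference between TG Aire-/- and Aire+/+ livers, was compared with all genes tested for likeness of pattern over the 6 liver libraries (root mean square distance of log2(RPKM + 1) after subtracting the Aire+/+ mean). Timp3, an inhibitor of metalloproteinases, was nearest at a distance of 0.186, with 4.95 and 3.89 RPKM in the CD8-depleted livers, 19.4 and 43.5 RPKM in the TG Aire-/- livers and 1.79 and 2.35 RPKM in the Aire+/+ livers. Myc followed at 0.246 with 3.43 and 3.17 RPKM in the CD8-depleted livers, 13.4 and 29.4 RPKM in the TG Aire-/- livers and 0.964 and 1.67 RPKM in the Aire+/+ livers. H2-Q8 came next at 0.261 and belongs to a multigene family whose copies share reads, so its values are uncertain. In all 3 genes the CD8-depleted livers lay between TG Aire-/- and Aire+/+ livers. That is the order of Ddit4, by whose pattern they were picked, so it is no separate observation.

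Of the 9 tested members Cdkn1a alone was called lower in CD8-depleted than in Aire+/+ livers, where 40 of all 12231 genes tested were. In mouse liver it is known to follow circadian time through the REV-ERB and ROR receptors. Core clock and clock output genes were therefore listed, after these values had been seen. Of 13 listed genes 12 were tested. Arntl, which encodes the clock activator BMAL1, had 0.949 and 0.292 RPKM in the CD8-depleted livers, 4.10 and 4.35 RPKM in the TG Aire-/- livers and 4.41 and 4.08 RPKM in the Aire+/+ livers. Ciart had 4.95 and 5.50 RPKM in the CD8-depleted livers, 0.763 and 1.42 RPKM in the TG Aire-/- livers and 0.464 and 1.22 RPKM in the Aire+/+ livers. Tef, a clock output factor, had 32.6 and 31.2 RPKM in the CD8-depleted livers, 10.2 and 11.7 RPKM in the TG Aire-/- livers and 15.0 and 20.2 RPKM in the Aire+/+ livers. Both CD8-depleted libraries thus stood apart from the other 4 in these genes. Of the REV-ERB genes, Nr1d1 overlapped between groups, with 2.04 and 9.06 RPKM in CD8-depleted, 4.48 and 8.89 RPKM in TG Aire-/- and 3.06 and 2.85 RPKM in Aire+/+ livers. Nr1d2 did not, with 12.7 and 16.0 RPKM in CD8-depleted, 4.14 and 9.71 RPKM in TG Aire-/- and 4.84 and 7.01 RPKM in Aire+/+ livers. Between CD8-depleted and TG Aire-/- livers 5 of the 12 tested clock genes rose and 2 fell, Arntl by -1.72 (limma adjusted p = 0.00464). Between TG Aire-/- and Aire+/+ livers 1 rose and 1 fell. Between CD8-depleted and Aire+/+ livers none passed the test, although 7 were higher and 3 lower without overlap, where 20.2% and 28.8% of all genes were. The hour of tissue collection is not given in the labels, and its part in the Cdkn1a values was not tested.

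**Figure D5:**
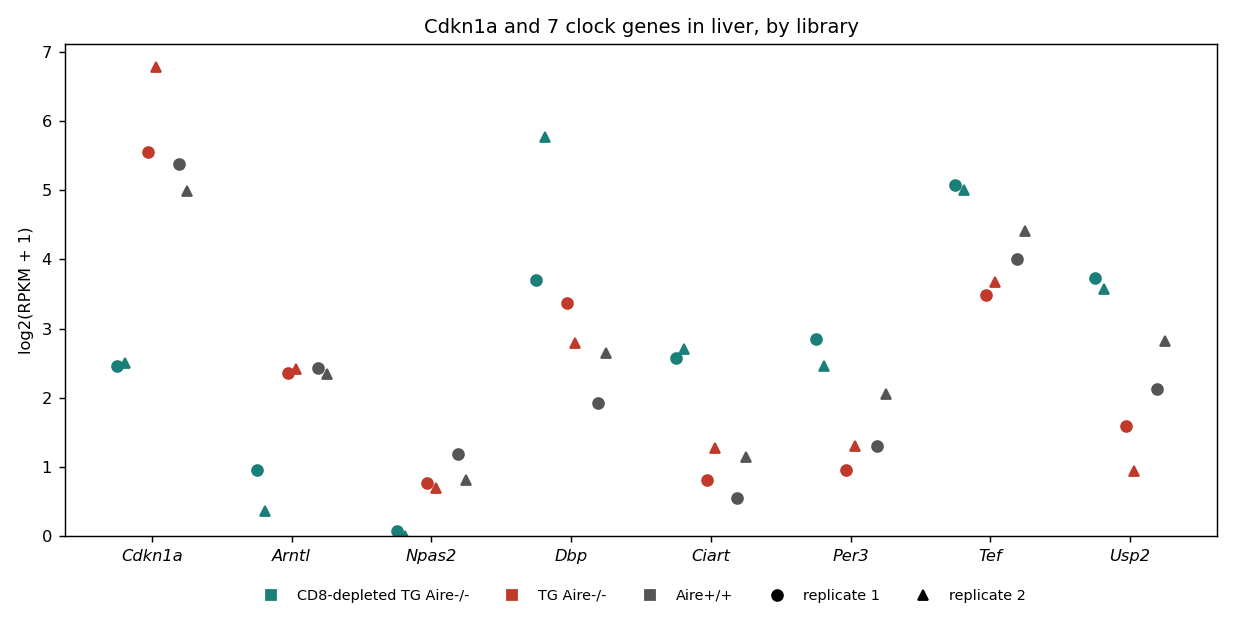
log2(RPKM + 1) of Cdkn1a and 7 clock genes in the 6 liver libraries (colours: group, CD8-depleted TG Aire-/- left, then TG Aire-/-, then Aire+/+; circles replicate 1, triangles replicate 2). Cdkn1a, Arntl and Npas2 are lower, and Ciart, Per3, Tef, Usp2 and Dbp higher, in both CD8-depleted libraries than in the other 4. Not all listed clock genes are drawn, and Nr1d1, which overlapped between groups, is not.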

How the data were processed

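The authors deposited RPKM values per gene for bulk RNA-seq of mouse liver and sorted liver CD8+ T cells. Per the submitters' processing notes, reads were aligned with STAR 2.5.2b to mm10. Which annotation and counter turned them into RPKM, and whether strand was used, is not given in the sources used here. Of 22 samples, 6 second-batch livers and 3 CD8+ T libraries were used, and 4 livers without a batch number and the thymus were not analysed here. The members and lists were chosen with earlier results of these data known.

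Values were transformed to log2(RPKM + 1), which understates changes of low genes. Genes with at least 1 RPKM in at least 2 of 6 liver libraries were fitted with limma 3.58.1 in R 4.3.3 (intensity trend, 3 groups in 1 fit, two-sided), with Benjamini-Hochberg adjustment over all genes tested and a threshold of 0.05. The steps were tested on simulated data. Alternatives changed the pseudocount, filter, scaling, trend, groups fitted, replicate block, sex covariate and libraries left out. The 10 genes are always named, with up to 4 genes from each list (the 2 genes that rose most and the 2 that fell most among those past the threshold in TG Aire-/- against Aire+/+ livers), Trp53, and the 3 genes most like the member with the largest difference. The step between low RPKM values gives about 20100000 to 22850000 reads per liver library and 20950000 to 22050000 per CD8+ T library. It was too loose to recover whole reads (39.9% to 44.8% of low liver values came out whole within 0.1 read), so no count test was run. The floor of 3 reads covers counting error only. Promoter sequences are from RefSeq. Python 3.11.15 was used for summaries. The values of 1 gene that this rule names are not reported here.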

Additional observations from a re-analysis of the deposited data

How the results depend on the processing

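In TG Aire-/- against Aire+/+ livers, 4565 genes passed the test, 3892 up and 673 down. Scaling by the median ratio gave 3308, split 1762 and 1546, and set the median of all genes at -0.05 in place of 0.53. Under that scaling 5 of the 9 members rose and none fell, with a median of 1.09 in place of 1.64. With male libraries only, none passed (0 of the 9 members, where 7 passed before). Leaving out 1 library gave 1270 to 5102 genes and 2 to 8 members. In CD8-depleted against TG Aire-/- livers, 4646 genes passed (549 up, 4097 down). Median-ratio scaling gave 2841 (1283 and 1558), a sex covariate 2945 and male libraries only 278, with 1 member in place of 6. Leaving out 1 library gave 1294 to 4723 genes (lowest without TG Aire-/- replicate 2, 2243 without CD8-depleted replicate 1) and 3 to 7 members. In CD8-depleted against Aire+/+ livers, 67 genes passed, against 17 with no filter, 17 with only the 2 groups compared, 16 with a sex covariate, 4 with male libraries only and 13 to 141 without 1 library. The 1 member called there, Cdkn1a, became 0 with no filter, a replicate block, a sex covariate and male libraries only, and 0 to 1 without 1 library.

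Some member estimates turned sign, the largest of them to 0.63 for Trp53inp1. Mdm2 in CD8-depleted against TG Aire-/- livers was 0.014 under median-ratio scaling. In CD8-depleted against Aire+/+ livers, Phlda3 was 0.017 with a sex covariate and -0.58 to 0.37 without 1 library, Bax -0.60 to 0.24, Trp53inp1 -0.99 to 0.63 and Bbc3 -0.13 to 0.44. The extremes came from leaving out a CD8-depleted library, and Bax was also 0.02 without Aire+/+ replicate 1. The cause was not tested. Cdkn1a kept its call in CD8-depleted against TG Aire-/- livers under 15 of 15 alternatives, and Ddit4 and Phlda3 theirs in TG Aire-/- against Aire+/+ livers under 14 of 15, all but male libraries only.

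Same-numbered replicates deviated together in 1 of 3 pairs of groups, in which the number is also the sex: the correlation of replicate 1 minus replicate 2 was 0.292 between TG Aire-/- and Aire+/+ livers, -0.0925 between CD8-depleted and Aire+/+ livers and -0.145 between CD8-depleted and TG Aire-/- livers. The number is thus only shared. With the replicate block 4427 genes passed in CD8-depleted against TG Aire-/- livers and 63 in CD8-depleted against Aire+/+ livers, and it changed no member call but that of Cdkn1a. Groups of 2 leave the spread poorly known, and a lone sample left in a group is assumed to vary like the others.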
